A study of Mus musculus with 10 samples.

Results

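The cell cycle and proliferation genes described here are 47 genes of the S phase and of the G2 and M phases, with the cyclins, kinases and inhibitors that govern entry into the cycle. They were found by matching each gene symbol to its Ensembl identifier, and 47 of the 18444 genes in the table of normalised read counts were members. All 47 had a mean of at least 10 normalised counts over the 10 libraries and were therefore tested, with means from 100.3 (*Cdc25c*) to 3995 (*Ccnd2*). They were divided by role into 8 G1 cyclins and kinases, 10 DNA replication genes, 13 mitotic regulators, 10 spindle and chromosome genes, 3 transcription factors and 3 inhibitors of cyclin-dependent kinases (CDKs).

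The data are poly-A RNA from whole brains taken at postnatal day 3 (P3), from 10 males of the strain C57BL/6N, with 1 library per mouse. In 5 mice 1 *Arid1b* allele carried a protein-truncating edit at exon 5, made with a Cas9 nickase (HT), and the other 5 were wild-type (WT) mice. The edit is in the germline, so no cell type is singled out, and it comes from a single edited line bred from HT fathers and WT mothers. *Arid1b* encodes a subunit of the BAF chromatin remodelling complex, and the comparison asks how the loss of 1 allele alters transcripts of the neonatal brain. *Arid1b* itself averaged 2101 normalised counts (SD 343, n = 5) among HT mice and 3335 (SD 203, n = 5) among WT mice, with no overlap between the groups (exact permutation p = 0.00794, the smallest that 5 against 5 libraries can give).

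A dividing cell makes D-type cyclins in G1, which act with CDK4 and CDK6 to release E2F transcription factors from the RB proteins. E2F then switches on the genes of DNA replication, and a later wave led by MYBL2 and FOXM1 switches on the genes of mitosis. In the neonatal mouse brain most neurons have left the cycle, while granule neuron precursors of the cerebellum, cells of the subventricular zone, radial glia, oligodendrocyte precursors, microglia and vessel cells still divide. In RNA from a whole brain, fewer cells of a type and less RNA per cell cannot be told apart.

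The replication and mitosis members varied together across the libraries, and stretches ahead of the transcription start of 7 members are printed here. Whether promoter motifs bear on that shared variation was not tested. They are examples that hold a match to a motif searched for, and some other members hold none. RefSeq gave a promoter window (250 bases before to 50 after the start, build GRCm38.p6) for 38 of the 47 members. It gave none for *Ccnd1*, *Ccnd2*, *Ccne2*, *Mcm4*, *Ccna2*, *Cdc25c*, *Aurkb*, *Tpx2* and *Foxm1*. Each window was searched on both strands for the cell cycle genes homology region (CHR, TTTGAA or TTCGAA), the CCAAT box (CCAAT) and an E2F motif (TTTCGCGC, TTTGGCGC, TTTCCCGC or TTTGCCGC), where matches on opposite strands may overlap. Each promoter is printed 5′ to 3′ on the strand of its gene from 150 bases before the start to the base before it, with every match in capitals. *Cdk1* (chr10:69352913-69353062, minus strand), *Cdc20* (chr4:118437344-118437493, minus), *Top2a* (chr11:99024190-99024339, minus), *Kif11* (chr19:37376232-37376381, plus) and *Mki67* (chr7:135716380-135716529, minus) are genes of mitosis. *Mcm5* (chr8:75109359-75109508, plus) and *Mcm6* (chr1:128359706-128359855, minus) are genes of replication.
Cdk1: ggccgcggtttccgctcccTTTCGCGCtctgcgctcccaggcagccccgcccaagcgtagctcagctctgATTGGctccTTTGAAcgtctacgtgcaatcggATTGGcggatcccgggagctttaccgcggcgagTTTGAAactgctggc
Cdc20: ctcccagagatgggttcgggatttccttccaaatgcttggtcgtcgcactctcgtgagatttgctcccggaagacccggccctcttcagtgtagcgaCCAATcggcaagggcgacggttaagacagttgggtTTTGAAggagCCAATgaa
Top2a: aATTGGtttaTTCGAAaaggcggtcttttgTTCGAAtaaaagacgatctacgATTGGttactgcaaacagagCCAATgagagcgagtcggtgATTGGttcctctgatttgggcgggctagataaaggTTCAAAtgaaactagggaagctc
Kif11: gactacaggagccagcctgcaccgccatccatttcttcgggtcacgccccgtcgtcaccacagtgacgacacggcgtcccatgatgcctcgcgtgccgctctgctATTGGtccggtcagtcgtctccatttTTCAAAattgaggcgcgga
Mki67: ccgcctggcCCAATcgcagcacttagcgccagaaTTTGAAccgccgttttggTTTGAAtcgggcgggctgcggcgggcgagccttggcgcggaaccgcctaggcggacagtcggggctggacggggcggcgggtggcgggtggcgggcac
Mcm5: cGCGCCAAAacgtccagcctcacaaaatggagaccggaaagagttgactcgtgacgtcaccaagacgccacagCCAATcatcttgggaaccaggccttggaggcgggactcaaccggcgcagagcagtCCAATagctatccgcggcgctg
Mcm6: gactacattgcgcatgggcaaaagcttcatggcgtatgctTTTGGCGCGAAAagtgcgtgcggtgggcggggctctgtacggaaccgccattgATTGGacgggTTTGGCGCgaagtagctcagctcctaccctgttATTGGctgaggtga

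The printed promoters were picked for their matches, and the counts over all members follow. A CHR stood in all 5 mitotic promoters printed and in neither replication promoter, while both replication promoters held an E2F motif, as did *Cdk1*. In *Cdk1* the CHR nearest to the start lay 15 to 10 bases before it, and in *Cdc20* and *Kif11* it began 18 and 19 bases before it. In *Mcm6* 3 E2F matches were found, and 2 of them overlap on opposite strands.

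Over the whole windows, a CHR was found in 15 of the 19 mitotic regulators and spindle genes with a window (78.9%), against 16.4% of the 12290 tested genes with a window. A CCAAT box stood in 16 of the same 19 (84.2%, against 42.6%), and both motifs together in 14 (73.7%, against 6.91%). The 4 without a CHR were *Ccnb1*, *Birc5*, *Cenpe* and *Nusap1*. Of the 9 replication genes with a window, 4 held an E2F motif (44.4%, against 4.39%), namely *Mcm3*, *Mcm5*, *Mcm6* and *Mcm7*, and 5 held none (*Pcna*, *Mcm2*, *Rrm1*, *Rrm2* and *Tyms*). A CHR was found in 2 of the 9, *Mcm2* and *Mcm7* (22.2%), and a CCAAT box in 8 (88.9%). Among the 5 G1 cyclins and kinases with a window, 0 held a CHR and 1, *Cdk2*, held an E2F motif. The 2 transcription factors and 3 inhibitors with a window held neither a CHR nor an E2F motif. A match is a run of letters and not a measured binding site.

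Each library summed to between 27.2 M and 29.03 M normalised counts (M for 1000000), and the 47 members took from 0.0952% to 0.139% of them. The library HT 4 stood apart from the other 9, with a score of 53.9 on the first principal component against -23.4 to 9.66. The main results on HT and WT are given with and without it. Markers of the brain's cell types were present throughout, and 0 genes of the 10 marker lists looked up were at 0 in any library.

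Per kilobase of exon, the members spanned from 32.4 normalised counts (*Kif20b*, a mitotic kinesin) to 1513 (*Cdk4*, the kinase partner of the D-type cyclins). *Pcna*, the sliding clamp of the replication fork, was second with 1088 per kilobase, followed by *Ccnd2*, a D-type cyclin, with 595. Next came the CDK inhibitors *Cdkn1a* (p21) with 536 and *Cdkn1b* (p27) with 400.2 per kilobase. The mitotic regulators were lower, from 51.5 (*Cdc25c*) to 205 (*Ccna2*). In the spindle and chromosome group only *Top2a*, with 294 per kilobase, was above 200. The D-type cyclins *Ccnd1* (326) and *Ccnd3* (276) were above the E-type cyclins *Ccne1* (109) and *Ccne2* (49.7), and *Cdk4* was far above *Cdk6* (44.8), all per kilobase. Levels per kilobase rest on exon lengths over all annotated transcripts and carry no error for the transcript in use.

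**Figure D1:**
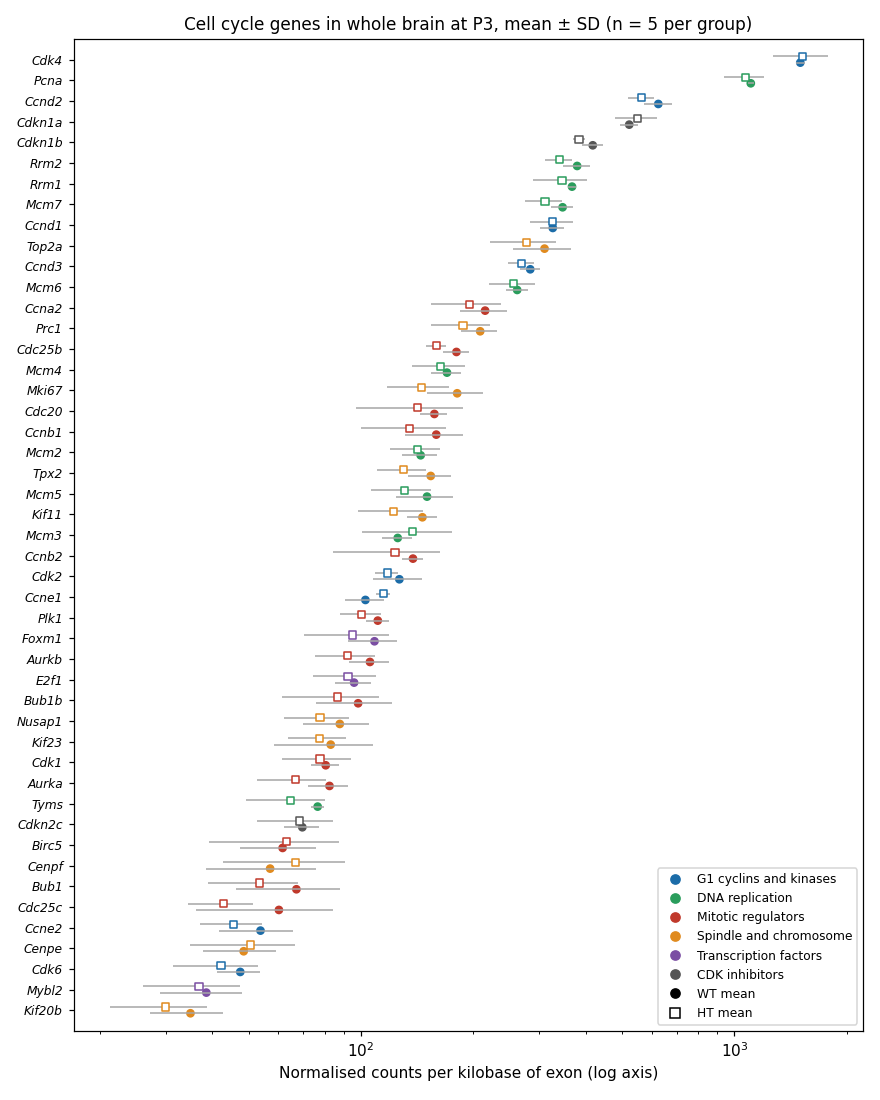
Level of each of the 47 members in normalised counts per kilobase of exon (log axis), as the mean of 5 WT libraries (filled circles) and 5 HT libraries (open squares) with bars of 1 SD. The HT means range from 71.1% (Cdc25c) to 117% (Cenpf) of the WT means, while the members span from 32.4 (Kif20b) to 1513 (Cdk4) per kilobase over the 10 libraries.

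Between HT and WT, 0 of the 47 members passed the threshold of 0.05 after adjustment over all 17020 genes tested (limma, smallest adjusted p 1.00), where 0 of all genes tested (0.00%) passed. *Arid1b*, the edited gene, was among those that did not pass (limma adjusted p 0.390), so the fit did not call the known change either. The mean of the log2 values was nonetheless lower in HT for 41 members and higher for 6, and the median log2 fold change was -0.15. Over all genes tested it was lower for 53.6% and the median was -0.0074. Counts of genes lower or higher in HT are from here on counts by the sign of this log2 fold change. At an unadjusted limma p under 0.05, 6 members were lower and 0 were higher, against 1.93% of all genes lower and 1.47% higher. The 6 were *Cdc25b*, *Kif11*, *Cdkn1b*, *Tpx2*, *Aurka* and *Mki67*. By the exact permutation test, unadjusted, 2 members were lower at that threshold, *Cdc25b* and *Cdkn1b*. The share of all genes by this test is not given here, so the count cannot be set against a background. The HT and WT libraries overlapped for all 47 members, whereas every HT library was below every WT library for 0.347% of all genes and above for 0.282%.

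The lower log2 means rested unevenly on the HT libraries. HT 5 was the lowest HT library for 34 of the 47 members and the lowest of all 10 libraries for 31, whereas it was the lowest of 10 for 9.18% of all genes tested. HT 4 was the highest HT library for 36 members and the highest of 10 for 20, against 24.7% of all genes. Without HT 4, 44 members were lower in HT, the median was -0.20, and 15 members were lower at an unadjusted p under 0.05 (3.71% of all genes), but 0 passed after adjustment (2 of 17020 genes did, 0.0118%). With array weights, which give HT 4 a low weight, 23 members were lower at that p (4.30% of all genes). With all 10 libraries and a trend on gene length and GC content removed, 39 members were lower, 4 of them at that p (1.69% of all genes). Without HT 4 and with that trend removed, 17 members were lower at that p (3.20%). Without HT 5, 32 members were lower, the median was -0.073 and 1 member was lower at an unadjusted p under 0.05 (1.45% of all genes), namely *Cdkn1b*. At that p 1 member, *Mcm3*, was higher without HT 5 (0.27, unadjusted limma p 0.0246), as were 1.25% of all genes.

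**Figure D2:**
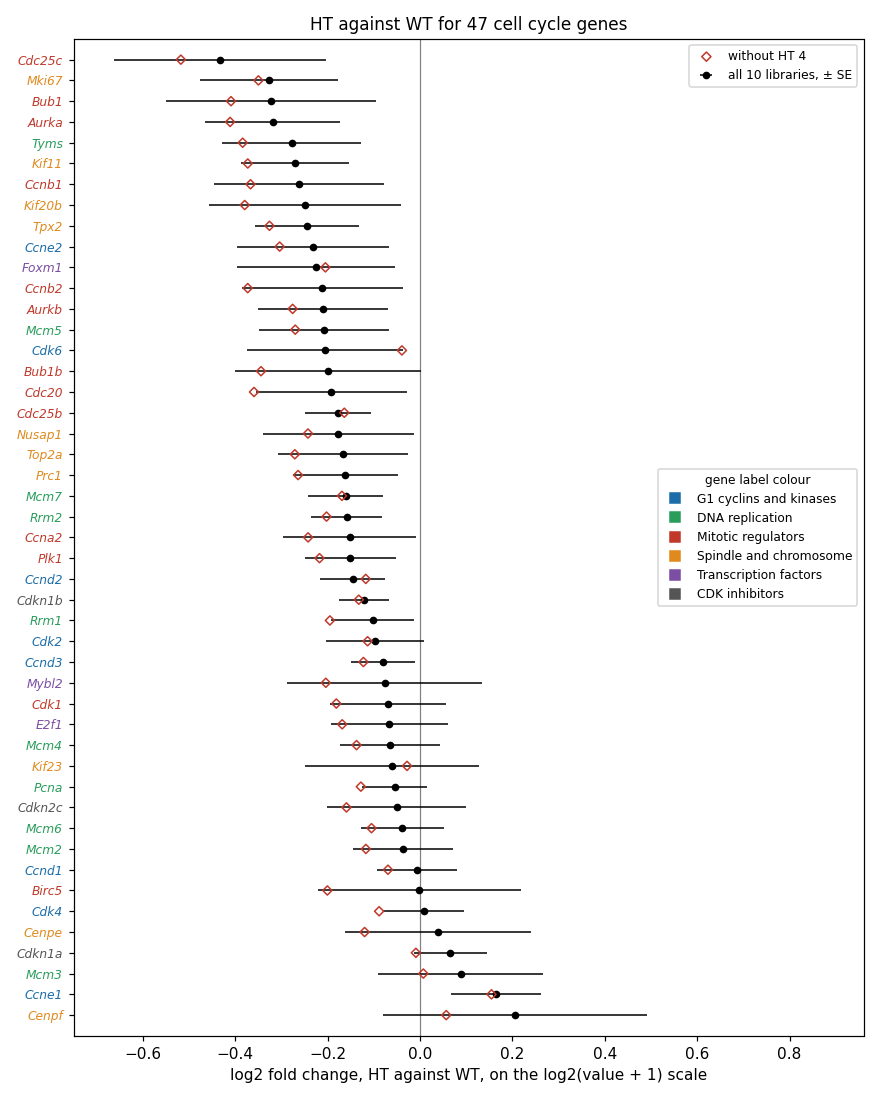
Log2 fold change of HT against WT for each member (black points, with bars of 1 SE from the limma fit over 10 libraries) and the same without HT 4 (open red diamonds), ordered by size and coloured by role. Most points lie left of 0, from -0.43 for Cdc25c to 0.20 for Cenpf, and most diamonds lie further left than their points.

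Of the 8 G1 cyclins and kinases, 6 were lower and 2 higher in HT (median log2 fold change -0.088, and -0.10 without HT 4). *Ccnd2* (ENSMUSG00000000184; chr6:127125162-127152193, minus strand), the D-type cyclin with the highest level, had 4187, 3702, 4024, 3498 and 3548 normalised counts in HT 1 to HT 5 and 4442, 3875, 4522, 4415 and 3735 in WT 1 to WT 5. WT 1, WT 3 and WT 4 were above every HT library, while WT 5 and WT 2 lay within the HT range, so the groups overlapped. On the log2 scale the fold change was -0.15 ± 0.07 (SE), with an exact permutation p of 0.0952 and a limma adjusted p of 1.00.

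*Cdk4* (ENSMUSG00000006728; chr10:127063534-127067920, plus strand) had 3018, 2823, 2831, 4047 and 2923 normalised counts in HT and 2977, 3202, 3025, 3132 and 3076 in WT, in the same order. HT 4 was far above the other 9 libraries, HT 2, HT 3 and HT 5 were below every WT library, and HT 1 lay within the WT range. The resulting log2 fold change was 0.0077 ± 0.09 (SE; exact permutation p = 0.992), and without HT 4 it was -0.089 (limma adjusted p 0.574). *Ccne1*, which with CDK2 drives the step into S phase, was the highest of the group in HT relative to WT, 229 ± 9.25 against 205 ± 24.4 normalised counts (SD over 5 HT and over 5 WT libraries), a log2 difference of 0.16 (exact permutation p = 0.0556). The log2 fold changes of the others were -0.23 for *Ccne2*, -0.21 for *Cdk6*, -0.097 for *Cdk2*, -0.079 for *Ccnd3* and -0.0069 for *Ccnd1*. *Cdk6* had 297 normalised counts in HT 4 and at least 447 in every other library, and without HT 4 its log2 fold change was -0.039 (unadjusted limma p 0.717).

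Of the 10 DNA replication genes, 9 were lower in HT, with a median of -0.084 and, without HT 4, of -0.15. *Rrm2* (ENSMUSG00000020649; chr12:24708241-24714146, plus strand), the S phase subunit of ribonucleotide reductase, had 745, 725, 745, 837 and 668 normalised counts in HT 1 to HT 5 and 826, 874, 872, 874 and 711 in WT 1 to WT 5. WT 2, WT 3 and WT 4 were above every HT library, and WT 5 was below all HT libraries but HT 5. Between the groups the log2 fold change was -0.16 ± 0.08 (SE; exact permutation p = 0.119, limma adjusted p 1.00), and without HT 4 it was -0.20 (limma adjusted p 0.470).

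*Pcna* (ENSMUSG00000027342; chr2:132249162-132253314, minus strand) had 1546, 1521, 1533, 1978 and 1546 normalised counts in HT and 1703, 1708, 1689, 1637 and 1661 in WT. HT 4 was the highest of the 10 libraries, and the other 4 HT libraries were below every WT library. This gave a log2 fold change of -0.055 ± 0.07 (SE; exact permutation p = 0.508), and without HT 4 it was -0.13, with an unadjusted limma p of 0.00610 and an adjusted p of 0.446.

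The same order was seen in *Rrm1*, the large subunit of ribonucleotide reductase, and *Tyms*, which makes thymidylate. Without HT 4, every remaining HT library lay below every WT library for these 3 of the 47 members, where 1.21% of all genes did so. *Rrm1* had 1165 to 1385 normalised counts in those 4 HT libraries and 1766 in HT 4, against 1427 to 1512 in WT. *Tyms* had 133 to 220 and, in HT 4, 268, against 227 to 254 in WT. The 6 subunits of the MCM helicase, which unwinds DNA at the fork, ranged in log2 fold change from -0.21 (*Mcm5*) and -0.16 (*Mcm7*) through -0.065 (*Mcm4*), -0.039 (*Mcm6*) and -0.037 (*Mcm2*) to 0.088 (*Mcm3*). Without HT 4 the values of *Mcm4*, *Mcm6*, *Mcm2* and *Mcm3* were -0.14, -0.11, -0.12 and 0.0070. The *Mcm3* libraries spread widely in HT, from 240 in HT 5 to 506 in HT 3, against 352 to 440 in WT.

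All 13 mitotic regulators were lower in HT on the log2 scale (median -0.20), and so they were without HT 4, with a median of -0.34. Without HT 5, 11 of the 13 were lower, the median was -0.10 and 0 had an unadjusted limma p under 0.05, against 2 with all libraries (*Cdc25b* and *Aurka*) and 6 without HT 4. *Cdc25b* (ENSMUSG00000027330; chr2:131186949-131198497, plus strand), a phosphatase that activates CDK1, had the smallest limma p of all members. Its normalised counts were 480, 542, 516, 479 and 476 in HT 1 to HT 5 and 597, 519, 585, 609 and 514 in WT 1 to WT 5. WT 1, WT 3 and WT 4 were above every HT library, and WT 2 and WT 5 lay inside the HT range. The log2 fold change was -0.18 ± 0.07 (SE), with an unadjusted limma p of 0.0279, an exact permutation p of 0.0397 and a limma adjusted p of 1.00.

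*Ccna2* (ENSMUSG00000027715; chr3:36564865-36572150, minus strand), the cyclin of S phase and G2 and the mitotic regulator with the highest level, had 808, 695, 650, 892 and 499 normalised counts in HT and 754, 694, 892, 903 and 655 in WT. The groups overlapped over most of their range, with HT 5 the lowest library and HT 3 just below WT 5. On the log2 scale the fold change was -0.15 ± 0.14 (SE; exact permutation p = 0.413), and it was -0.24 without HT 4 and -0.033 without HT 5.

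The partners of mitotic entry were CDK1 itself at -0.070 and the B-type cyclins *Ccnb1* at -0.26 and *Ccnb2* at -0.21 on the log2 scale, none past the threshold. Without HT 4, *Cdk1* was at -0.18 and *Ccnb2* at -0.37 (unadjusted limma p 0.0106), and without HT 5 they were at 0.019 and -0.073. *Cdc25c*, the lowest-expressed member, had the most negative value, -0.43 ± 0.23 (SE; exact permutation p = 0.143), from 59.4 to 104 normalised counts in HT and 79.2 to 197 in WT. WT 2 was the library at 197, and the next highest WT library was at 113. Without WT 2 the log2 fold change of *Cdc25c* was -0.23. The mitotic kinases gave -0.32 for *Aurka*, -0.21 for *Aurkb* and -0.15 for *Plk1*. *Aurka*, which matures the spindle poles, averaged 129 ± 27.3 among HT libraries against 160 ± 19.7 among WT libraries (normalised counts, SD, n = 5 each; exact permutation p = 0.0873). The checkpoint kinases *Bub1* and *Bub1b* were at -0.32 and -0.20, *Cdc20*, which activates the anaphase-promoting complex, at -0.19, and *Birc5* (survivin) at -0.0014. *Birc5*, *Cdc20* and *Bub1b* were at -0.20, -0.36 and -0.34 without HT 4. The mean of the normalised counts of *Birc5* was slightly higher in HT, 215 against 210.

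Of the 10 spindle and chromosome genes, 8 were lower in HT, with a median of -0.17 (-0.27 without HT 4 and -0.093 without HT 5). *Mki67* (ENSMUSG00000031004; chr7:135689784-135716361, minus strand) encodes Ki-67, the coat protein of mitotic chromosomes used as a stain for cycling cells. It had 1713, 1444, 1606, 1526 and 996 normalised counts in HT 1 to HT 5 and 2057, 1592, 2145, 1903 and 1404 in WT 1 to WT 5. WT 1, WT 3 and WT 4 were above every HT library, WT 2 and WT 5 lay among the HT libraries, and HT 5 was the lowest. The mean of HT reached 80.0% of that of WT, a log2 fold change of -0.33 ± 0.15 (SE), with an unadjusted limma p of 0.0492, an exact permutation p of 0.103 and a limma adjusted p of 1.00. Without HT 5 the log2 fold change was -0.20.

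*Top2a* (ENSMUSG00000020914; chr11:98992943-99024189, minus strand), the topoisomerase that untangles chromosomes before they part, had 1437, 1405, 1404, 1907 and 1089 normalised counts in HT and 2064, 1390, 1755, 1482 and 1404 in WT. HT 4 was the second highest of the 10 libraries and HT 5 the lowest, and HT 1 to HT 3 lay level with WT 2 and WT 5. The resulting log2 fold change was -0.17 ± 0.14 (SE; exact permutation p = 0.389), and it was -0.27 without HT 4 and -0.069 without HT 5.

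*Kif11* (ENSMUSG00000012443; chr19:37376403-37421859, plus strand), the kinesin that pushes the spindle poles apart, had 622, 519, 557, 771 and 476 normalised counts in HT and 754, 678, 771, 708 and 607 in WT. HT 4 was level with the highest WT library, while HT 2, HT 3 and HT 5 were below every WT library and HT 1 was above WT 5 alone. Between the groups the log2 fold change was -0.27 ± 0.12 (SE; exact permutation p = 0.0952). Without HT 4 it was -0.37, with the smallest unadjusted limma p of the members (7.33e-04) and an adjusted p of 0.350.

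*Tpx2*, which nucleates spindle microtubules, was at -0.24 (exact permutation p = 0.135), *Kif20b* at -0.25, *Nusap1* at -0.18, *Prc1*, which bundles the central spindle, at -0.16 and its partner *Kif23* at -0.060. The kinetochore genes *Cenpf* and *Cenpe* were the 2 that were higher in HT, at 0.20 ± 0.29 and 0.038 ± 0.20 (SE), and without HT 4 they were at 0.057 and -0.12. *Kif20b* was then at -0.38, *Prc1* at -0.26 and *Kif23* at -0.028. *Cenpf* was the most variable member, with 905, 809, 458, 1057 and 476 normalised counts in HT and 868, 511, 831, 576 and 390 in WT, so that the groups covered nearly the same range (exact permutation p = 0.548).

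All 3 transcription factors were lower in HT on the log2 scale (median -0.077, and -0.20 without HT 4). *Foxm1* (ENSMUSG00000001517; chr6:128362967-128376146, plus strand), which drives genes of G2 and mitosis, had 570, 424, 523, 405 and 281 normalised counts in HT and 564, 416, 556, 561 and 430 in WT. HT 5 was the lowest library and HT 1 the highest, and the other 3 HT libraries lay within or just under the WT range. This gave a log2 fold change of -0.23 ± 0.17 (SE; exact permutation p = 0.246). Without HT 5 it was -0.073. *E2f1* and *Mybl2* were at -0.067 and -0.077, without HT 4 at -0.17 and -0.20, and without HT 5 at 0.0071 and 0.048.

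The 3 CDK inhibitors, which hold cells out of the cycle, gave a median of -0.051 and, without HT 4, of -0.13. *Cdkn1b* (ENSMUSG00000003031; chr6:134920401-134925513, plus strand), the p27 of cells that have left the cycle, had 1707, 1780, 1644, 1800 and 1795 normalised counts in HT and 1850, 1775, 1877, 1905 and 2095 in WT. Every HT library was below 4 of the 5 WT libraries, and WT 2 lay within the HT range. The log2 fold change was -0.12 ± 0.05 (SE), with an exact permutation p of 0.0317, the smallest of the members, and a limma adjusted p of 1.00. *Cdkn1a* (ENSMUSG00000023067; chr17:29090976-29100727, plus strand), the p21 induced by p53, had 1363, 1348, 1484, 1827 and 1452 normalised counts in HT and 1496, 1307, 1456, 1385 and 1462 in WT. HT 4 was above every other library, and the remaining 4 HT libraries lay within the WT range. On the log2 scale the fold change was 0.07 ± 0.08 (SE; exact permutation p = 0.571), and -0.0091 without HT 4. *Cdkn2c* (p18) was at -0.051 and, without HT 4, at -0.16.

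A further 126 genes of the cycle, written as lists of G1 and RB genes, replication genes, mitosis genes and inhibitors, gave 125 in the table. Of these, 102 were lower and 23 higher in HT (median log2 fold change -0.11), and 0 passed after adjustment over all genes (limma). At an unadjusted p under 0.05, 13 were lower (1.93% of all genes) and 0 were higher (1.47%), and 11 of the 13 were among the 59 mitosis genes, whose median was -0.20. The replication list of 35 genes had a median of -0.060 and 1 gene at that p, and the 22 G1 and RB genes a median of -0.077 and 1 gene. The 9 further inhibitors had a median of -0.0086.

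Every HT library lay below every WT library for 3 of the 125 (0.347% of all genes). *Racgap1*, a regulator of cytokinesis, had 952 to 1068 normalised counts in HT and 1076 to 1225 in WT, a log2 fold change of -0.20 ± 0.06 (SE). *E2f7*, a repressor of E2F targets, had 140 to 173 against 174 to 225 (-0.32 ± 0.10), and *Wee1*, the kinase that restrains CDK1, 178 to 195 against 198 to 243 (-0.22 ± 0.09). The exact permutation p was 0.00794 for each, and the limma adjusted p 1.00. The smallest unadjusted limma p of the list, 0.00224, belonged to *Ccnf* (cyclin F), which averaged 242 ± 30.2 among HT libraries and 313 ± 25.4 among WT libraries (normalised counts, SD, n = 5 each). Without HT 4, 110 of the 125 were lower, 38 at an unadjusted p under 0.05 (3.71% of all genes) and 10 without overlap (1.21% of all genes), and the smallest adjusted p was 0.222. Without HT 5, 90 of the 125 were lower, 12 at an unadjusted p under 0.05 (1.45% of all genes), and the median was -0.067.

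Across the 10 libraries the members varied more than most genes and largely together. The SD of log2 values over the libraries had a median of 0.253 for the members and 0.158 for all genes tested, and 34 of the 47 were above the latter. The median Pearson r over the 1081 pairs of members was 0.574, against -0.0015 over pairs of all genes tested, as a description over 10 libraries that both members of a pair share. With the difference between genotypes removed it was 0.569, and without HT 4 it was 0.584.

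The replication genes (median r 0.723 over 45 pairs) and the mitotic regulators (0.665 over 78 pairs) were the most alike within their groups, and replication genes moved with the mitotic regulators and spindle genes as closely (0.693 over 230 pairs). The G1 cyclins and kinases (0.154 over 28 pairs) and the 3 inhibitors (0.054) were less alike. Against the mean of all other members, r was above 0.5 for 40 of the 47 members. It was highest for *Bub1b* (0.975), *Kif11* (0.943) and *Cdkn2c* (0.932). It was 0.455 for *Cdc25b*, 0.362 for *Cdkn1a*, 0.259 for *Ccnd3*, 0.100 for *Ccne1*, 0.094 for *Kif23*, 0.022 for *Cdkn1b* and -0.19 for *Cdk6*. Without HT 4, in which *Cdk6* was lowest and most members were high, the value of *Cdk6* was 0.43 and that of *Mki67* 0.984 in place of 0.838.

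The shared pattern placed the libraries in an order that crossed the genotypes. The mean deviation over the 47 members from the mean of each gene was 0.227 in HT 4, 0.186 in WT 3, 0.172 in WT 1, 0.084 in WT 4 and 0.031 in WT 2 on the log2 scale. It was -0.0060 in HT 1, -0.063 in HT 3, -0.11 in HT 2, -0.14 in WT 5 and -0.37 in HT 5. Thus 4 of 5 WT libraries were above 0 and 4 of 5 HT libraries below it, with WT 5 below every HT library except HT 5.

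**Figure D3:**
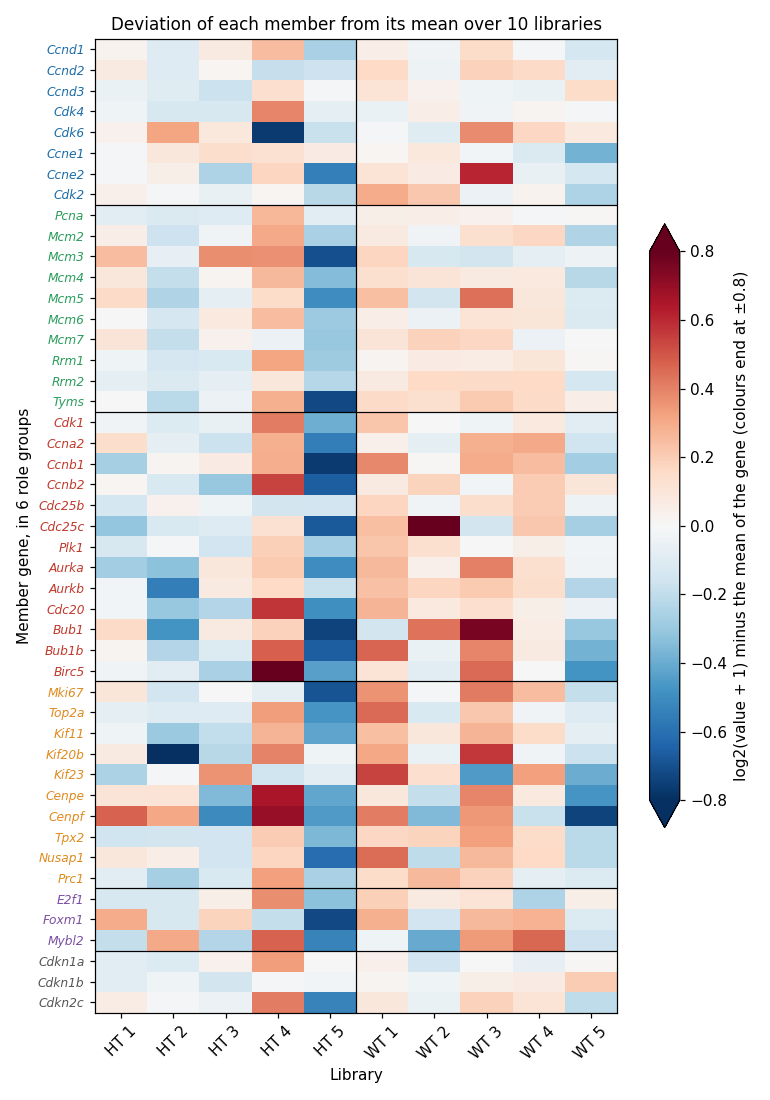
Deviation of each member from its own mean over the 10 libraries (log2 scale; red above, blue below, colours ending at 0.8 either way), with members in 6 role groups as rows and the libraries as columns. HT 5 is blue and HT 4 red through most replication and mitosis rows, whereas Cdk6 is blue in HT 4.

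Outside the cell cycle lists, the genes whose log2 levels were most like the mean of the 23 mitotic regulators and spindle genes were *Tspan15* (r = 0.966), *Man1c1* (0.962), *Gm15577* (0.952) and *Aldh1l1* (0.95), over 10 libraries. *Aldh1l1* is in the list of radial glia and astrocyte markers. *Pclaf*, a PCNA-binding protein of S phase, followed with 0.945, then *Iltifb* (0.944) and *H1f0* (0.933). The first 10 ended with *Zic1*, a transcription factor of cerebellar granule precursors (0.932), *Ptbp1* (0.930) and *Tead2*, of the Hippo pathway (0.924). The median over genes outside the lists was -0.021 and over the other cell cycle genes 0.612. The 10 genes were picked for the highest r over all genes outside the lists, so their r carries no p. *Gm15577* and *Iltifb* averaged 21.4 and 13.8 normalised counts, near the filter of 10. Without HT 4 the order changed to *Myo1e* (0.977), *Smo*, the transducer of the Hedgehog signal (0.975), *Smarca5* (0.964) and *Tspan15* (0.958).

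*Mki67* was compared with 7 other members and with the summed level of 10 lists of cell type markers, on the log2 scale over 10 libraries, with p values from a permutation test adjusted over these 17 relations. It followed *Ccnd2* most closely (Pearson r = 0.861, permutation p = 2.00e-04, adjusted p 0.00340; Spearman rho = 0.915, permutation p = 5.30e-04, adjusted p 0.00901). Leaving out HT 5 and WT 3, the libraries farthest from the *Mki67* median, r was 0.895. *Ccnd2* and *Mki67* were both low in HT 5, WT 5 and HT 2 and high in WT 3, WT 1 and WT 4, and HT 4 had the lowest *Ccnd2*.

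*Ccnb1* (r = 0.845, permutation p = 0.00332, adjusted p 0.0282; rho = 0.758, permutation p = 0.0146, adjusted p 0.124) also passed for r but not for rho. Without HT 5 and WT 3 its r was 0.578. Leaving out the libraries farthest in *Mki67* narrows its range, so this cannot tell whether the relation rested on those 2 libraries. *Top2a* (r = 0.755, adjusted permutation p 0.0557; rho = 0.648, adjusted 0.166) and *Mcm2* (r = 0.676, adjusted permutation p 0.0799; rho = 0.709, adjusted 0.149) did not pass with all libraries. Without HT 4 they did, with r of 0.885 and 0.897 (adjusted permutation p 0.00510 and 0.00178). *Pcna* (0.244), *Cdkn1b* (0.058) and *Cdkn1a* (-0.041) did not pass either way.

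In the sum of the 9 cerebellar granule precursor markers *Zic1* weighed most, with means of 3858 normalised counts in HT and 4366 in WT. *Gli1* had 184 and 211, and *Atoh1* 29.2 and 28.1. Of the marker sums, this one had the highest r with *Mki67*, 0.803 (permutation p = 0.00541, adjusted p 0.0307; rho = 0.624, adjusted p 0.169). Without HT 5 and WT 3 it was 0.490, again over a narrower range of *Mki67*, and without HT 4 it was 0.945. Neuron markers gave -0.693 (adjusted permutation p 0.0799) and, without HT 4, -0.840 (adjusted permutation p 0.0142). Radial glia and astrocyte markers gave 0.456 and, without HT 4, 0.773 (adjusted permutation p 0.0317). The other 7 sums did not pass with or without HT 4, from erythroid cells at -0.636 (adjusted permutation p 0.102) to choroid plexus at 0.567 (0.187).

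**Figure D4:**
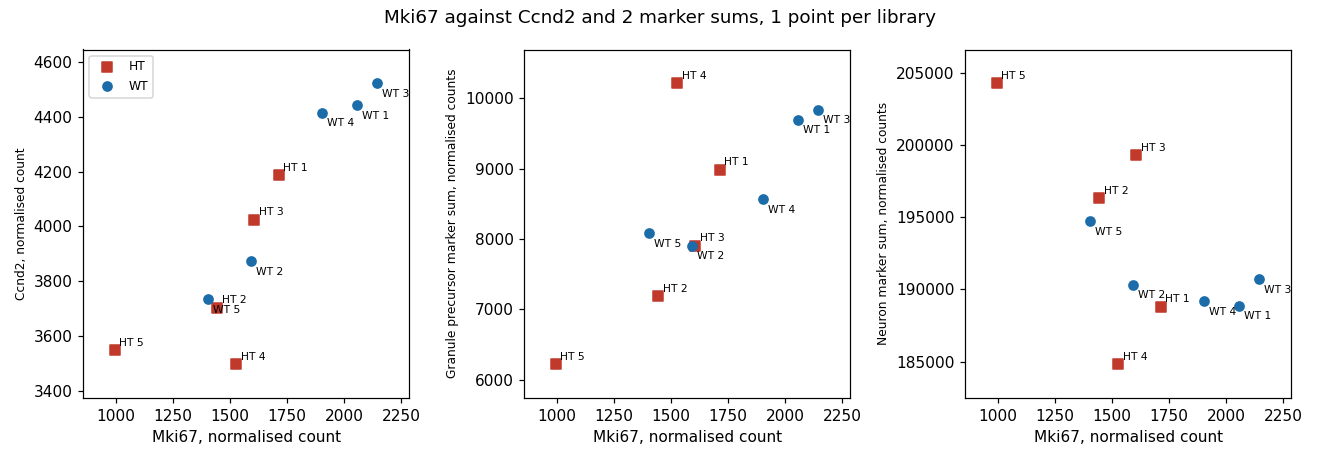
Normalised counts of Mki67 (x axes) against those of Ccnd2, of summed granule precursor markers and of summed neuron markers (y axes), 1 point per library, HT as squares and WT as circles. Ccnd2 and Mki67 rise together apart from HT 4, the granule precursor sum is lowest in HT 5 and highest in HT 4, and the neuron sum is highest in HT 5.

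The same marker lists differed between the genotypes to different degrees, and 0 of their genes passed after adjustment (limma). Over all genes tested, 53.6% were lower in HT. At an unadjusted limma p under 0.05, 3 of 7 choroid plexus genes were lower (*Ttr*, *Clic6* and *Folr1*), against 1.93% of all genes. So was 1 of 10 radial glia and astrocyte genes (*Nes*), and each other list had 0 genes at that p. Granule precursor markers were lower in HT on the log2 scale for 8 of 9 genes, and their sum was 6219 to 10216 normalised counts in HT, lowest in HT 5 and highest in HT 4, against 7905 to 9842 in WT. Subventricular and intermediate progenitor markers were lower for 9 of 9 genes (median log2 fold change -0.15, and -0.10 without HT 4). *Dcx* formed most of their sum, which was 22628 in HT 4. It was 40593 to 45121 in the other HT libraries and 38289 to 42938 in WT, so only HT 4 was below the WT range. Microglia markers were lower for 10 of 10 genes, with 2095 to 3166 in HT and 2268 to 3787 in WT.

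Choroid plexus markers were lower for 6 of 7 genes. Their sum did not overlap between the groups, with 6979 to 9894 in HT and 10458 to 14182 in WT. Of all genes taken singly, 0.347% had every HT library below every WT library, and no such rate for sums of markers is given. *Ttr* formed most of the sum, with means of 8118 normalised counts in HT and 11181 in WT. Erythroid markers were higher for 6 of 6 genes tested, with 5960 to 13733 in HT and 4528 to 13889 in WT. Radial glia and astrocyte markers (6 of 10 lower, 36258 to 49656 against 37378 to 43980), oligodendrocyte precursors (4 of 8 lower, 28882 to 32885 against 27469 to 34850) and neurons (3 of 9 lower, 184820 to 204279 against 188871 to 194714) were divided. So were endothelial cells (7 of 9 lower, 5974 to 7171 against 6346 to 6987) and meninges and fibroblasts (5 of 8 lower, 13329 to 22395 against 14091 to 41152). The part of these cell types in the lower log2 means of the cell cycle genes was not tested.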

How the data were processed

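Poly-A RNA of whole brains from 10 male mice at P3 was sequenced in 1 library per mouse, 5 HT and 5 WT, grouped by their labels. Per the methods and processing notes of the authors, reads were quantified with Salmon 1.1.0 on GRCm38 with GC bias correction, imported with tximport and divided by DESeq2 1.30.1 size factors. The deposited table therefore holds a signal, the normalised read count, for 18444 genes. Values were not whole, and at most 21.0% of those under 30 lay within 0.02 of a whole multiple of any step, so reads were not recovered and no count model was run. The annotation release is not given in the sources used here. Symbols, positions and exon lengths are from GENCODE M21 (GRCm38, 18431 genes matched).

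Values were analysed as log2(value + 1), which understates changes of low genes, in R 4.3.3 with limma 3.58.1 (limma-trend, robust, no covariate, 2-sided, Benjamini-Hochberg over the 17020 genes with a mean of at least 10, threshold 0.05; 1424 genes left out). Python 3.11.15 gave 2-sided exact permutation tests over all assignments of 5 and 5 libraries (unadjusted) and permutation tests of correlations with 100000 resamples. The workflow was tested on simulated data. The deposited signal carries no read counts, so precision comes from the spread between mice. The limma p values set each difference against that spread, moderated over all genes, and the permutation p values come from reassigning libraries. Values in every library are given for *Mki67*, *Top2a*, the member with the smallest limma p and that with the highest level per length in each role group, and any member whose groups did not overlap. Other genes are named with their group or after their values were seen. The members, lists and tests were chosen with earlier results of these data known. Alternatives were another pseudocount, another filter or none, rescaled totals, limma array weights, a replicate block, removal of a length and GC trend, and leaving out each library.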

Additional observations from a re-analysis of the deposited data

Results flagged for a closer look

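In groups of 5 libraries, 62 sets of values were checked for a single library far from the other 4, and 8 were found, where chance alone would give about 1 in 20 sets, or 3.10. The far library was HT 4 in 6 of the 8. Among HT libraries, HT 4 was high for *Cdk4* (4047 normalised counts), *Pcna* (1978) and *Cdkn1a* (1827), and for the summed radial glia and astrocyte markers (49656). It was low for the summed subventricular and intermediate progenitor markers (22628), of which *Dcx* forms most, and for the total of the library (27.2 M normalised counts).

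HT 5 was low for the mean deviation of the 8 G1 cyclins and kinases (-0.18 on the log2 scale), where the other HT libraries ranged from -0.036 to 0.017. Among WT libraries, WT 5 was low for the mean deviation of the 13 mitotic regulators (-0.17), where the others ranged from 0.13 to 0.22.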

How the results depend on the processing

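The labels do not say that the replicate numbers pair the mice. Same-numbered HT and WT libraries correlated in their deviations at -0.10 to 0.093, and 4 of 5 correlated best with their own number. Numbers 1, 2, 3 and 5 had 0.082 to 0.093, against means of -0.022 to -0.020 with the other numbers. What the numbers stand for was not tested. With a replicate block 0 genes, 0 members and 0 other cell cycle genes were called, 7 members had an unadjusted p under 0.05, and the median of the members was -0.15. The share of all genes at that p with the block is not given here. Under every alternative run 0 members and 0 other cell cycle genes passed after adjustment. Among all genes, 2 passed with array weights, 2 without HT 4, 2 without HT 4 with the length and GC trend removed (chosen after seeing the data) and 1 with that trend removed. Members lower at an unadjusted p under 0.05 numbered 23 with array weights (4.30% of all genes) and 4 with the trend removed (1.69%). They numbered 17 without HT 4 with the trend removed (3.20%). When single libraries were left out they numbered 0 to 15. There were 0 without WT 1 or WT 3, 1 without HT 2, HT 5 or WT 4, and 15 without HT 4. The other cell cycle genes numbered 42 with array weights and 14 with the trend removed. They numbered 40 without HT 4 with the trend removed, 38 without HT 4 and 21 without WT 5. The median of the 3 inhibitors was 0.074 without HT 5.

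The log2 fold change of *Cdk4* turned to -0.075 with array weights, -0.089 without HT 4, -0.0048 without WT 1 and -0.055 without HT 4 with the trend removed (up to 0.041 without HT 2), and that of *Cdkn1a* to -5.59e-04 with array weights and -0.0091 without HT 4 (up to 0.10 without HT 2). The r of *Mki67* passed with rescaled totals for *Top2a* (0.771) and neuron markers (-0.867), and with the trend removed for *Top2a* (0.822), *Mcm2* (0.801) and neuron markers (-0.890). Without HT 4 it passed for *Top2a* (0.885), *Mcm2* (0.897), radial glia (0.773) and neuron markers (-0.840), and without WT 4 for *Top2a* (0.795). When single libraries were left out, *Top2a* ranged from 0.554 to 0.885, *Mcm2* from 0.529 to 0.897, radial glia markers from 0.155 to 0.773 and neuron markers from -0.840 to -0.365. *Ccnb1* ranged from 0.633 to 0.910 and granule precursors from 0.60 to 0.945, both lost without HT 5, WT 1, WT 3 or WT 5 and the latter also without HT 2. *Cdkn1b* turned to -0.022 without WT 3 and -0.0099 without WT 4 (up to 0.339 without WT 5). *Cdkn1a* turned to 0.068 with rescaled totals, 0.167 with the trend removed, 0.058 without HT 4 and 0.0078 without WT 4 (down to -0.095 without WT 1), and subventricular markers to -0.384 with the trend removed. The cause was not tested. Read depth per value is unknown from normalised counts, so no counting error is given.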

Other observations

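Among the other genes of the cycle, those with the largest negative log2 fold changes were picked after their values were seen. *Gins2*, a subunit of the replicative helicase, averaged 86.6 normalised counts among HT and 128 among WT libraries (-0.66, unadjusted limma p 0.0907). *Espl1*, the separase that opens cohesin at anaphase, had 213 and 300.4 (-0.57, unadjusted limma p 0.103). *Knl1*, a kinetochore scaffold, had 143 and 211 (-0.57, unadjusted limma p 0.0158, adjusted p 1.00). None passed the threshold.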
